A study of Mus musculus with 16 samples.

Results

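The genes described here are the 2 thyroid hormone receptor genes, Thra and Thrb, their dimer partners Rxra and Rxrb, and 5 co-regulators of these receptors, Ncor1, Hdac3, Ncoa1, Ncoa3 and Med1. They were taken by gene symbol, 9 of the 47643 gene identifiers in the deposited tables, and all 9 were measured in 16 libraries. The libraries came from the spleens of 8 mice, 4 labelled TRaGS and 4 labelled TRaWT. TRaGS mice carry a thyroid hormone receptor alpha whose DNA binding is abolished, and TRaWT mice are their wild-type littermates. The labels give no age, treatment or other allele for either genotype. Each mouse gave 1 library of CD25- CD4+ T cells, which the study calls naive (CD4 below), and 1 library of CD25+ CD4+ regulatory T cells (Treg below). The study asked how the receptor acts in the differentiation and function of Treg and compared the genotypes within each subset. The comparison asked of the 9 genes was whether the receptor's partners and co-regulators were present in both subsets and whether their transcript levels differed with genotype.

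Thyroid hormone receptors are nuclear receptors that sit on DNA, mostly as heterodimers with a retinoid X receptor (RXR). Without hormone they hold a corepressor complex built on NCOR1, which carries the histone deacetylase HDAC3. With hormone they exchange it for p160 coactivators, among them those encoded by Ncoa1 and Ncoa3, and for the Mediator complex, which MED1 links to the receptor. The first zinc finger of the DNA-binding domain holds the P box, the stretch that reads the DNA sequence of the response element. The GS mutation exchanges a pair of neighbouring P-box codons.

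The wild-type P-box coding sequences of the 4 receptors are shown because the genotypes differ at this site in Thra. They are 30 coding bases each, 5′ to 3′, from the GENCODE mouse release M21 transcripts (GRCm38), and the capitals mark the 2 codons that the GS mutation changes in Thra and the matching codons of the others.
Thra: tgtGAGGGCtgcaagggcttctttcgccgc
Thrb: tgtGAAGGCtgcaagggcttctttagaaga
Rxra: tgtGAGGGCtgcaagggcttcttcaagagg
Rxrb: tgcGAGGGCtgcaagggtttcttcaagcgc
The capitals lie at chr11:98757012-98757017 in exon 4 of 10 of Thra, at chr14:18002617-18002622 in exon 2 of 7 of Thrb, at chr2:27741790-27741795 in exon 4 of 10 of Rxra and at chr17:34034048-34034053 in exon 4 of 10 of Rxrb, all on the plus strand. In Thra and Thrb an exon junction falls within the 30 bases. The Thra stretch shared 25 of 30 bases with Thrb and 24 with each RXR gene, and its 6 capital bases were identical to those of both RXR genes. The libraries hold reads from the 3′ ends of transcripts, and the P box of Thra lies 1723 bases from the 3′ end of transcript Thra-201, 1579 bases from that of Thra-202 and 1003 bases from that of Thra-203. The level of Thra therefore does not check the genotype labels.

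Values are normalised read counts, read counts divided by 1 factor per library within the table of each subset, and whole reads were recovered from them (2679119 to 5095278 in the CD4 libraries and 2912038 to 4154027 in those of Treg). A single gene, Gm42418, held 21.1% to 41.1% of these reads in CD4 and 20.8% to 33.0% in Treg, and it is included in the library totals. In each subset its share was lowest in TRaGS replicate 2. The Treg genes Foxp3 and Il2ra had 297 to 404 and 307 to 500.3 RPM (reads scaled to a library total of 1000000) in Treg, where CD4 had 12.0 to 51.4 and 18.3 to 42.7, and Cd4 and Cd3e were present in all 16 libraries. The summed level of 4 Treg markers was 1788 to 2270 RPM in TRaWT and 2282 to 2627 in TRaGS Treg libraries, without overlap. The nearest values were 2270 and 2282, on library totals that include Gm42418. Of single genes tested in Treg, 5.07% did not overlap between the genotypes on normalised counts. The CD4 library of TRaGS replicate 2 stood apart: it was the deepest, with 5095278 reads, had 75.8 RPM of red cell genes (2 genes) against at most 8.68 in the other CD4 libraries, 21.2 of macrophage and monocyte genes (4 genes) against at most 2.09, and 14.4% mitochondrial reads against 8.87% to 12.0%. The Treg library of the same animal was also the deepest of its subset (4154027 reads) and had the highest sums of these genes in Treg, 20.2 and 9.63 RPM, where the next highest were 12.6 and 5.15. Values that move most without this animal are given with and without it, and the part of depth and marker genes in them was not tested. In their titles the libraries of replicates 1 and 2 of both genotypes carry numbers from 1 to 18 and those of replicates 3 and 4 numbers from 19 to 36. What the numbers stand for is not given.

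None of the 9 genes passed the test for a difference between the genotypes in either subset. With limma and Benjamini-Hochberg adjustment over all genes tested, 0 of 9 were called at an adjusted p under 0.05 in CD4 and 0 of 9 in Treg, where the background was 0.0575% of 10426 tested genes in CD4 and 0.959% of 11051 in Treg. At an unadjusted p under 0.05 by limma the counts were also 0 and 0. Over all genes tested, 539 of 10426 in CD4 and 1008 of 11051 in Treg were below it. EdgeR and DESeq2 on the recovered reads called 0 of the 9 in each subset. The TRaWT and TRaGS values of all 9 overlapped in both subsets, where 3.16% of tested genes in CD4 and 5.07% in Treg did not overlap. The median log2 change (TRaGS minus TRaWT) of the 9 genes was 0.05 in CD4 and 0.04 in Treg, beside -0.01 and 0.01 over all genes tested. The 95% intervals differ widely between genes, so that the data bound the change of Ncor1 closely and that of Thrb or Rxra hardly at all. In CD4 the fit took each gene's error from the trend of all genes at its level, so an interval there does not measure the gene's own spread. In Treg, and in the difference between subsets below, the error also drew on this trend (prior degrees of freedom 36.8 and 106). Intervals there measure a gene's own spread only in part.

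**Figure D1:**
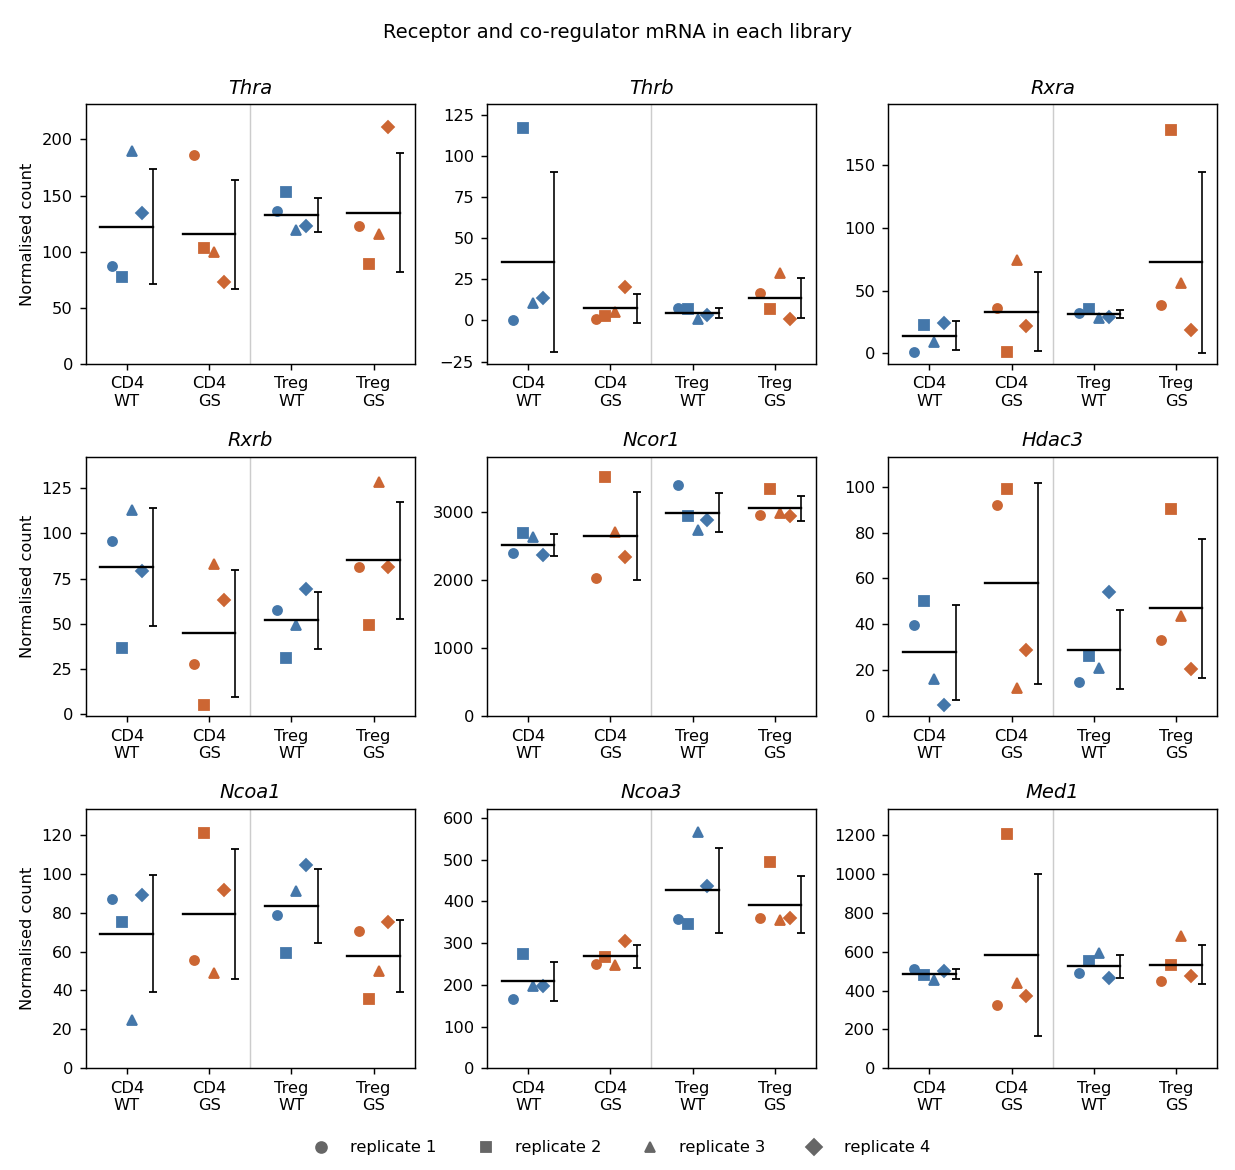
Normalised read counts of the 9 genes (y axis, 1 panel per gene, linear scale) in the 16 libraries, grouped on the x axis by subset and genotype (WT is TRaWT, GS is TRaGS); points are libraries, horizontal lines the mean and bars the SD of 4. In each panel the TRaWT and TRaGS points of a subset overlap, and the points of Thrb and Rxra spread from near 0.

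Thra, which encodes thyroid hormone receptor alpha (chr11:98740638-98769006, plus strand), was present in every library, with 64 to 194 recovered reads. In CD4 the normalised counts of TRaWT replicates 1 to 4 were 87.2, 77.7, 189 and 134, and those of TRaGS replicates 1 to 4 were 186, 103, 99.4 and 73.3. Both genotypes span nearly the same range, and each has 1 library near 190. In Treg the TRaWT values were 136, 153, 119 and 123 and the TRaGS values 123, 88.9, 116 and 211, and TRaGS replicate 4 lies above all others and TRaGS replicate 2 below. The means ± SD (n = 4) were 122 ± 51.2 (TRaWT) and 115 ± 48.7 (TRaGS) in CD4 and 133 ± 15.3 and 135 ± 52.9 in Treg. The log2 change was -0.07 ± 0.54 (SE) in CD4, with a 95% interval from -1.13 to 0.99, and -0.05 ± 0.28 in Treg, with an interval from -0.62 to 0.52. The limma adjusted p was 0.990 in CD4 and 0.981 in Treg. In CD4 the change was 0.74 among the libraries numbered 1 to 18 and -0.89 among those numbered 19 to 36, so its direction did not hold within the 2 sets of numbers.

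The 3′ end of Thra overlaps that of Nr1d1, which encodes the nuclear receptor REV-ERB alpha on the opposite strand, by 1075 bases. Transcripts Thra-201 and Thra-203 end inside this overlap, at positions 98769006 and 98768403, and Thra-202 ends before it, at 98765111. The strand setting used for counting is not given in the sources used here, and without strand the reads of the pair in the overlap cannot be told apart. Nr1d1 had 0 or 1 read in each CD4 library and 0 to 22 reads in the Treg libraries, fewer than Thra in all 16. Counts per gene do not separate the Thra isoforms that do and do not bind hormone.

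Thrb, which encodes thyroid hormone receptor beta (chr14:17660261-18038090, plus strand), had few reads, except in 1 library. In CD4 the TRaWT values were 0, 117, 10.9 and 13.4 and the TRaGS values 0.978, 2.83, 5.13 and 20.6. The value of 117, from 140 reads in TRaWT replicate 2, was the highest of the 16 libraries, and the same animal's Treg library had 7 reads. In Treg the TRaWT values were 7.40, 7.04, 1.17 and 3.52 and the TRaGS values 16.6, 7.23, 29.0 and 1.09. The log2 change was -1.08 ± 1.37 in CD4 (95% interval -3.77 to 1.60, limma adjusted p = 0.947), and 0.02 without TRaWT replicate 2. In Treg it was 0.94 ± 1.04 (interval -1.15 to 3.04, limma adjusted p = 0.869).

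Of the RXR genes, Rxra (chr2:27676440-27762957, plus strand) and Rxrb (chr17:34031812-34038399, plus strand) were detected in all 16 libraries. Rxrg had 0 reads in all 16, which allows up to 3 reads per library, or 0.589 to 1.12 RPM in CD4 and 0.722 to 1.03 in Treg (counting error only).

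Rxra was more even among TRaWT Treg libraries than in any other group. The TRaWT Treg values were 32.1, 35.2, 28.0 and 29.3 (31.1 ± 3.19), and the TRaGS Treg values were 38.2, 179, 55.8 and 18.5 (72.8 ± 72.2). TRaGS replicate 2 with 247 reads lies far above and TRaGS replicate 4 below the whole TRaWT range. In CD4 the TRaWT values were 0.807, 22.6, 8.71 and 24.4 and the TRaGS values 36.2, 0.707, 74.8 and 21.8, and 1 library of each genotype had a single read. The animal with 179 in Treg is the one with 0.707 in CD4. The log2 change was 0.85 ± 1.28 in CD4 (95% interval -1.66 to 3.35, limma adjusted p = 0.959) and 0.72 ± 0.53 in Treg (interval -0.36 to 1.80, limma adjusted p = 0.764). Without TRaGS replicate 2 it was 1.98 in CD4 and 0.13 in Treg.

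Rxrb was lower in the mean of TRaGS in CD4 and higher in Treg, and neither difference passed the test. In CD4 the TRaWT values were 96.1, 36.8, 113 and 79.3 and the TRaGS values 27.4, 4.95, 83.0 and 63.0. The 2 lowest libraries are TRaGS replicates 2 and 1, while replicates 3 and 4 lie within the TRaWT range. In Treg the TRaWT values were 57.5, 31.2, 49.0 and 69.3 and the TRaGS values 81.4, 49.2, 128 and 81.6, with 3 TRaGS libraries above all TRaWT libraries. Its log2 change was -1.30 ± 0.81 in CD4 (95% interval -2.90 to 0.29, limma adjusted p = 0.947) and 0.68 ± 0.40 in Treg (interval -0.12 to 1.49, limma adjusted p = 0.646). Without TRaGS replicate 2 the CD4 change was -0.51. Within the libraries numbered 1 to 18 and 19 to 36 it was -2.22 and -0.38.

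Whether the genotype change itself differed between Treg and CD4 was tested with the 2 libraries of each animal taken as 1 difference on the log2 scale. For Rxrb it was 1.99 ± 0.89 (95% interval 0.23 to 3.75), with an unadjusted p of 0.0273 and an adjusted p of 0.689 by limma, so it failed the correction. On a common scale of RPM (TMM-scaled over the 16 libraries), Rxrb was lower in Treg than in CD4 in 4 of 4 TRaWT animals, by 0.40 to 1.37 on the log2 scale, and higher in 4 of 4 TRaGS animals, by 0.13 to 2.46. Of 9914 genes tested in both subsets, 0.414% had this pattern and 0.353% its reverse, and Rxrb was the only one of the 9 genes with either. This pattern was not among the planned comparisons. It is read from the same animals and libraries as the limma test, so it adds no separate support. Without TRaGS replicate 2 the limma difference of Rxrb was 1.43 with an adjusted p of 0.841. Over all 9 genes this test called 0 (background 0.171% of 9914 genes), and 1 of 9, Rxrb, had an unadjusted p under 0.05. Of all 9914 genes 656 had an unadjusted p under 0.05 by limma in this test. The median difference of the 9 was -0.04, beside 0.01 over all genes tested.

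**Figure D2:**
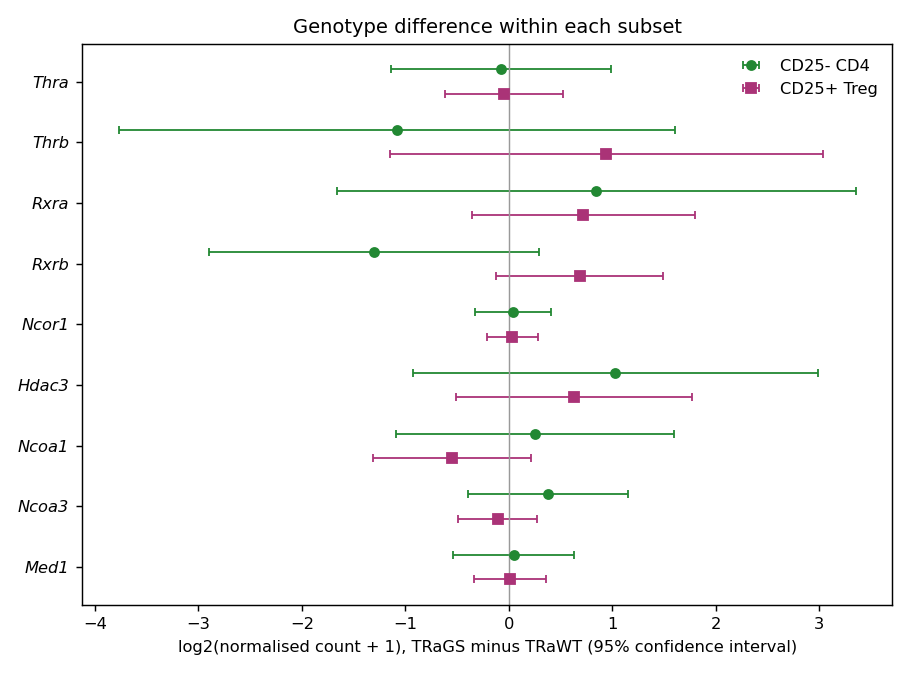
Log2 change between genotypes (x axis, TRaGS minus TRaWT, on normalised count + 1) of the 9 genes in CD4 and in Treg; points are limma estimates and bars their 95% intervals. Every interval includes 0, and those of Thrb and Rxra in CD4 span several log2 units while those of Ncor1 stay within 0.41 of 0.

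On the corepressor side, Ncor1 (chr11:62316426-62458541, minus strand), the platform of the complex, had the tightest values of the 9 genes in Treg. In CD4 the TRaWT values were 2399, 2684, 2631 and 2363 and the TRaGS values 2029.6, 3518, 2699 and 2334. In Treg they were 3397, 2938, 2733 and 2885 against 2958, 3328, 2989 and 2946. The highest CD4 value is that of TRaGS replicate 2, and the Treg ranges of the genotypes nearly coincide. The log2 change was 0.04 ± 0.19 in CD4 (95% interval -0.33 to 0.41, limma adjusted p = 0.988) and 0.04 ± 0.12 in Treg (interval -0.21 to 0.28, limma adjusted p = 0.967). The Treg interval leaves out changes above 0.28 in either direction. The sign of the CD4 value turned under another scaling (-0.09 with upper-quartile scaling and -0.08 with quantile normalisation) and without TRaGS replicate 2 (-0.11). Ttc19 lies over the 3′ end of Ncor1 on the opposite strand, with 5 to 111 reads in CD4 and 38 to 98 in Treg, against 1938 or more for Ncor1 in each library.

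Hdac3, the deacetylase of the complex (chromosome 18, minus strand), was the only one of the 9 genes separated by the library numbers. In CD4 the TRaWT values were 39.6, 50.1, 16.3 and 4.88 and the TRaGS values 91.9, 99.0, 12.3 and 28.6. In both genotypes replicates 1 and 2 are higher than replicates 3 and 4. The 4 libraries numbered 1 to 18 had 70.1 ± 29.7 and those numbered 19 to 36 had 15.5 ± 9.94, with ranges of 39.6 to 99.0 and 4.88 to 28.6 that did not overlap. In CD4 1 of 9 genes was separated in this way, as were 5.78% of all genes tested, so the share over the 9 rests on Hdac3 alone. The log2 change between genotypes was 1.03 ± 1.00 (95% interval -0.93 to 2.99, limma adjusted p = 0.947), and it was 1.08 within the libraries numbered 1 to 18 and 0.98 within those numbered 19 to 36. With the library numbers as a block the limma adjusted p was 0.899, and without TRaGS replicate 2 the change was 0.63. In Treg the values were 14.8, 26.2, 21.0 and 54.0 in TRaWT and 33.2, 90.4, 43.5 and 20.7 in TRaGS, and the library numbers did not separate them (0 of 9 genes, background 3.49%). The Treg log2 change was 0.63 ± 0.57 (interval -0.51 to 1.78, limma adjusted p = 0.823) and 0.26 without TRaGS replicate 2.

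**Figure D3:**
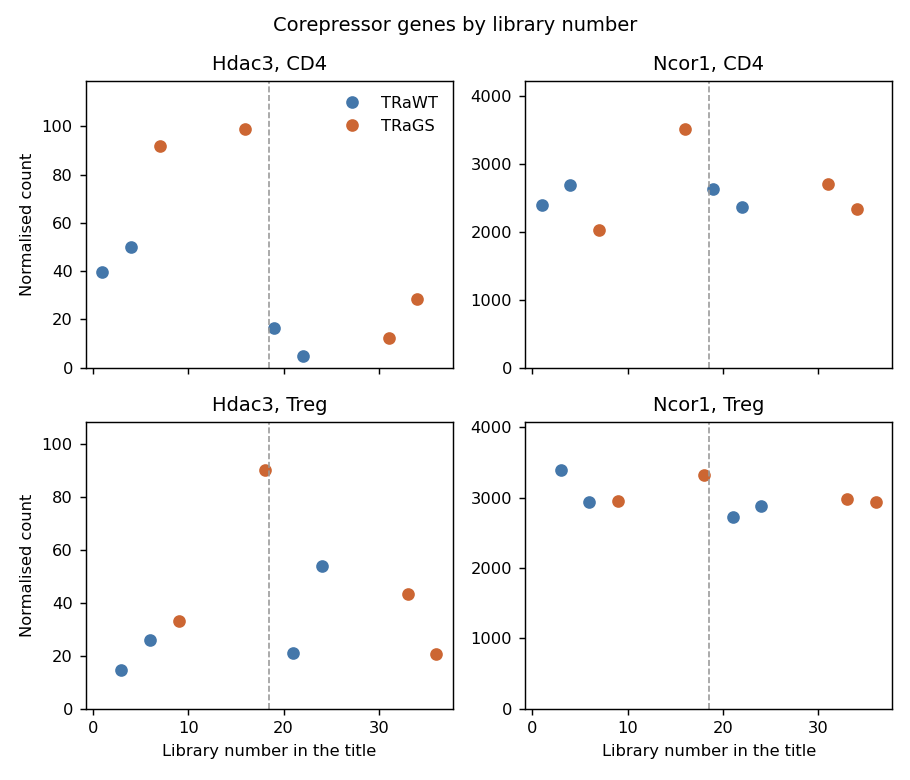
Normalised read counts (y axis, linear scale from 0) of Hdac3 and Ncor1 in CD4 (top) and Treg (bottom) against the library number in the title (x axis); points are libraries with genotype by colour, and the dashed line divides the numbers 1 to 18 from 19 to 36. In CD4 Hdac3 runs from 39.6 to 99.0 left of the line and from 4.88 to 28.6 right of it, and neither Ncor1 nor the Treg values are separated.

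Over all the lists of co-regulators and partners described below, 7 genes of 84 tested in CD4 were separated by the numbers (8.33%, background 5.78%) and 0 of 85 in Treg (background 3.49%). The Mediator genes Med9, Med20 and Med24 were higher at the high numbers and the Mediator cyclin gene Ccnc was lower. Rbpj, the Notch effector gene on the corepressor list, was also higher at the high numbers. Med24 had 0 to 4.84 in the libraries numbered 1 to 18 and 25.6 to 29.4 in the others.

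Of the coactivators, Ncoa1 (SRC-1, chr12:4247362-4477182, minus strand) had TRaWT values of 87.2, 75.2, 25.0 and 89.0 and TRaGS values of 55.7, 121, 49.2 and 91.7 in CD4. The groups overlapped, with the lowest library in TRaWT and the highest in TRaGS. In Treg the TRaWT values were 78.9, 59.4, 91.0 and 104 and the TRaGS values 70.6, 35.4, 50.2 and 75.0, so 2 TRaGS libraries lie below all of TRaWT and 2 within its range. The means were 83.4 ± 19.1 and 57.8 ± 18.4 in Treg. Between genotypes Ncoa1 gave a log2 change of 0.26 ± 0.69 in CD4 (95% interval -1.09 to 1.60, limma adjusted p = 0.982; 0.026 without TRaGS replicate 2) and -0.55 ± 0.38 in Treg (interval -1.32 to 0.21, limma adjusted p = 0.729). The 3′ end of Ncoa1 lies under 4921501I09Rik on the opposite strand, and without strand their reads cannot be told apart.

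Ncoa3 (SRC-3, chr2:165992636-166073242, plus strand) had TRaWT values of 165, 275, 198 and 196 and TRaGS values of 250.3, 267, 248 and 306 in CD4. Of the TRaWT libraries 3 lie below all of TRaGS, and TRaWT replicate 2 lies within its range. In Treg the TRaWT values were 357, 346, 566 and 438 and the TRaGS values 360.4, 493, 355 and 361. Here 3 TRaGS libraries sit close together, and TRaGS replicate 2 stands above them. For Ncoa3 the log2 change came to 0.38 ± 0.39 in CD4 (95% interval -0.39 to 1.15, limma adjusted p = 0.947) and -0.11 ± 0.19 in Treg (interval -0.49 to 0.28, limma adjusted p = 0.933). Without TRaGS replicate 2 the Treg value was -0.22. The p160 gene Ncoa2 gave 0.27 ± 0.43 in CD4 and 0.05 ± 0.23 in Treg, and without TRaGS replicate 2 the CD4 value turned to -0.18.

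Med1, the Mediator subunit that nuclear receptors contact (chr11:98152154-98193293, minus strand), was even in 3 of the 4 groups. In CD4 the TRaWT values were 510.2, 480.3, 455 and 502 (487 ± 24.7) and the TRaGS values 326, 1208, 438 and 372 (586 ± 417). TRaGS replicate 2 had 1709 reads and stands above all other libraries, while the other 3 TRaGS libraries lie below all 4 TRaWT libraries. The log2 change in CD4 was 0.05 ± 0.30 (95% interval -0.54 to 0.63, limma adjusted p = 0.988) with this library and -0.37 (limma adjusted p = 0.962) without it. In Treg the TRaWT values were 489.8, 552, 596 and 464 and the TRaGS values 450.1, 531, 679 and 476. The Treg change was 0.01 ± 0.17 (interval -0.33 to 0.36, limma adjusted p = 0.992).

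TRaGS replicate 2 was the highest of its group of 4 in 4 of the 9 genes and the lowest in 2 in CD4, and the highest in 4 and the lowest in 3 in Treg. In CD4 it was highest for Ncor1, Hdac3, Ncoa1 and Med1 and lowest for Rxra and Rxrb. Such counts were not particular to this animal. TRaWT replicate 2 had the same counts in CD4, highest in 4 and lowest in 2. In Treg, TRaWT replicate 3 and TRaGS replicate 4 were each highest in 2 and lowest in 4.

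The levels of the 9 genes in the 2 subsets were compared on RPM, with no test, since the tables had been normalised separately. In bulk samples a lower share of cells that express a gene and less RNA per cell cannot be told apart. Ncoa3 was higher in Treg in 8 of 8 animals, by 0.53 ± 0.45 (SD) on the log2 scale. The CD4 and Treg values were nearly equal in TRaGS replicate 4 (101.6 and 101.9 RPM) and close in TRaWT replicate 2 (93.5 and 96.7). Ncoa3 had 56.1 to 102 RPM (median 83.6) in CD4 and 96.7 to 159 (median 102) in Treg, so the 8 values of each subset overlapped. The ratio of the means was 1.44. In TRaWT alone the ranges, 56.1 to 93.5 and 96.7 to 159, did not overlap, and in TRaGS alone, 82.9 to 102 and 100.2 to 143, they did. Of all genes, 3.16% were higher in Treg in all 8 animals. Sulf2, over the 3′ end of Ncoa3 on the opposite strand, had 0 to 20 reads in CD4 and 0 or 1 in Treg.

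The other 8 genes had no common direction over the 8 animals. Thra was higher in Treg in 3 of 8 animals, with a mean log2 difference of -0.03 ± 0.76. Its mean level was 40.7 ± 16.5 (TRaWT) and 39.3 ± 16.4 (TRaGS) RPM in CD4 and 37.5 ± 4.23 and 38.3 ± 14.7 in Treg, and these means differ by less than the smallest of the 4 SDs. Ncor1 was likewise close in both subsets, at -0.01 ± 0.23, and higher in Treg in 4 of 8 animals. Med1 was at -0.16 ± 0.59 and Ncoa1 at -0.25 ± 0.96. Thrb, Rxra, Rxrb and Hdac3 varied most between animals, with SDs of 2.25, 2.09, 1.24 and 1.48 around means of -0.43, 1.10, 0.13 and -0.14. The median over all genes was 0.04. On RPM without TMM factors this median was 0.27, and the values of Thra (0.22), Ncor1 (0.25), Hdac3 (0.087) and Med1 (0.091) turned positive, while Ncoa3 was 0.78 and again higher in Treg in 8 of 8 animals. Sums of markers of other cells, on RPM without TMM factors, also differed between the subsets, in both directions. The median sum of dendritic cell genes (3 genes) was 14.5 (TRaWT) and 8.60 (TRaGS) RPM in CD4 and 1.31 and 1.18 in Treg. That of NK cell genes (2 genes) was 6.91 and 5.91 in CD4 and 1.97 and 1.83 in Treg. The medians of B cell genes (4 genes) were higher in Treg, with 13.1 and 6.44 in CD4 and 17.6 and 32.2 in Treg. CD8 T cell genes (2 genes) had the highest medians of the other-cell sums. Their medians were close between subsets, at 94.7 and 103 in CD4 and 92.8 and 102 in Treg. Within a genotype the ranges of the subsets overlapped, except for dendritic cell genes in TRaWT and B cell genes in TRaGS. The part of these markers in the subset differences was not tested.

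**Figure D4:**
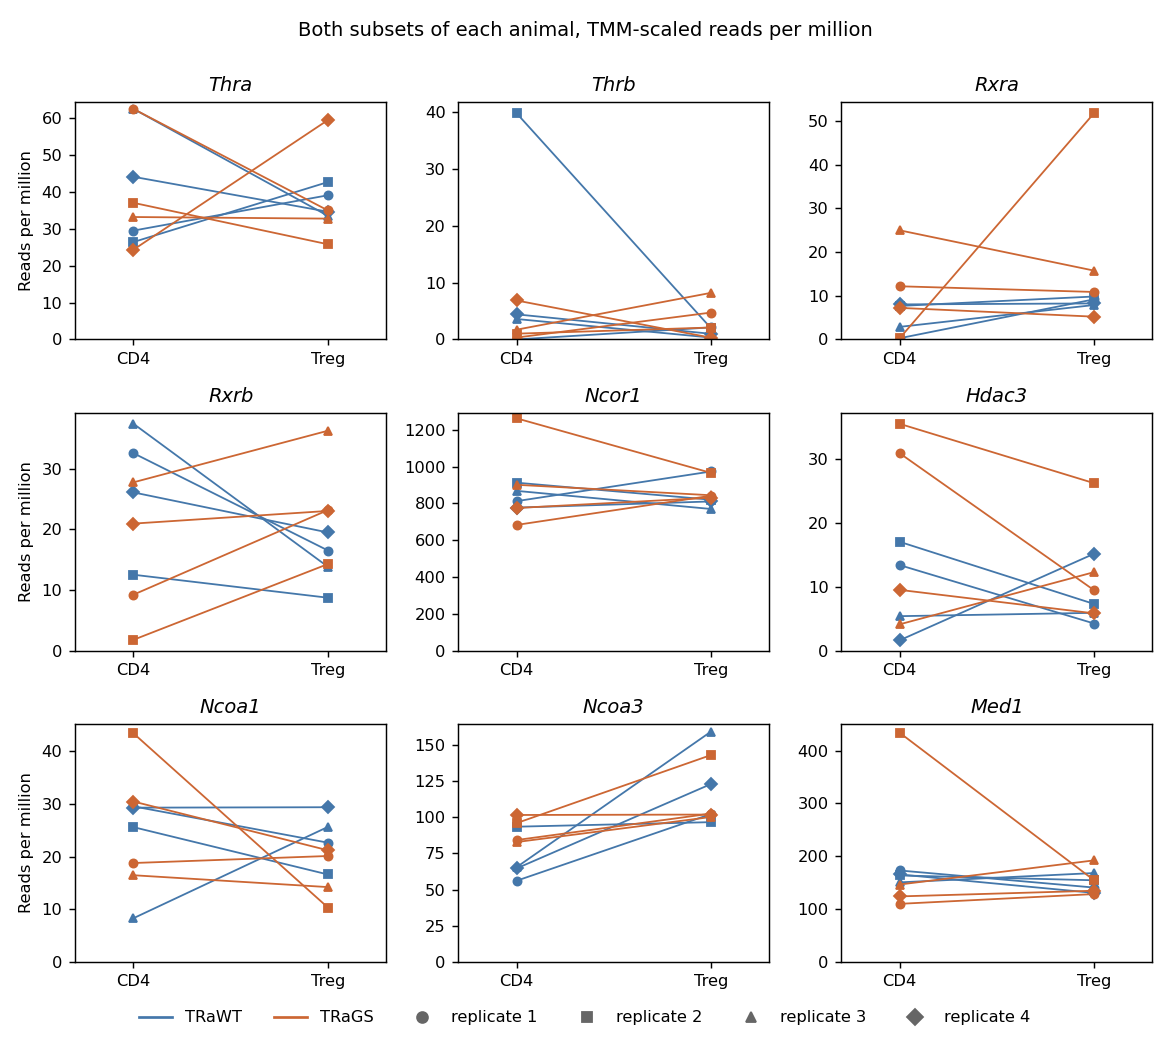
TMM-scaled RPM (y axis, linear scale from 0, 1 panel per gene) in the CD4 and Treg library of each of the 8 animals; each line joins the libraries of 1 animal, with genotype by colour and replicate by symbol. Ncoa3 is higher in Treg in 8 of 8 animals, though nearly level in TRaGS replicate 4. Rxrb is lower in Treg in the 4 TRaWT animals and higher in the 4 TRaGS animals.

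The spread between animals of 1 genotype exceeded counting error for each of the 9 genes. The coefficient of variation of Thra was 42.1% in CD4 and 29.1% in Treg, where counting error alone would give 9.06% and 8.60%. Ncor1 had the smallest value in Treg, 7.95% against 1.81% from counting, and Ncoa3 the smallest in CD4, 15.9% against 6.40%. Thrb had the largest in CD4, 184% against 21.4%. The coefficient was larger in CD4 than in Treg for 8 of the 9 genes, as for 88.6% of all genes, and Ncoa3 was the exception, with 21.0% in Treg. For Med1 it was 55.1% in CD4, where the value of TRaGS replicate 2 lies, and 15.8% in Treg.

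**Figure D5:**
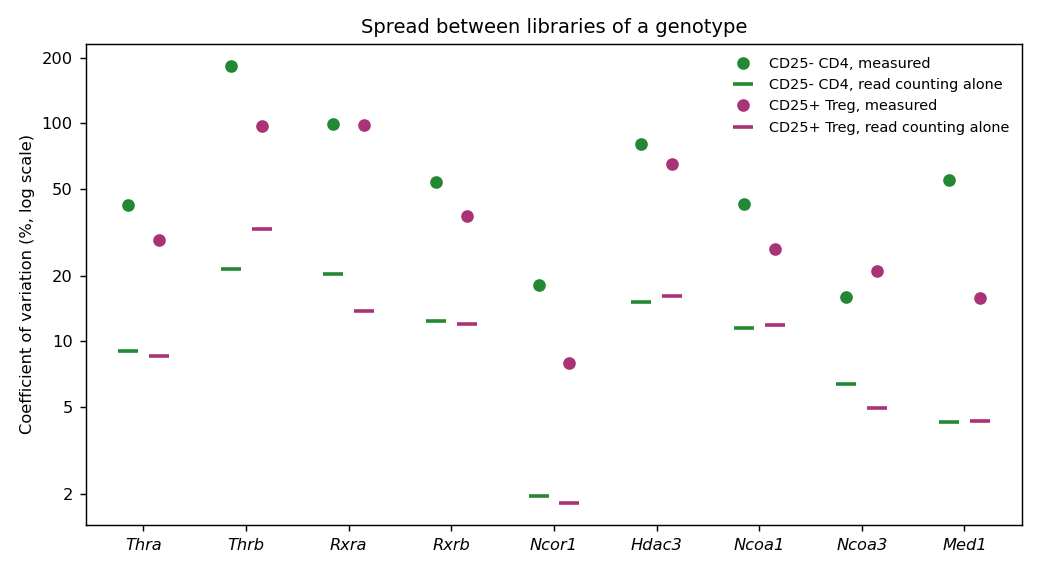
Coefficient of variation between animals within a genotype (y axis, percent, log scale) of the 9 genes in CD4 and in Treg (points), with dashes at the value that counting error alone would give. Each gene lies above its counting value, and Thrb in CD4 reaches 184%.

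Around the 9 genes, 4 lists of the receptor machinery were examined, in all 97 genes. They were the corepressor complex (20 genes), coactivators and histone modifiers (25), Mediator (33) and RXR with its partners (19). The lists include the 9 genes, so their counts are not separate from the results above. Of the 97 genes, 84 were tested in CD4 and 85 in Treg, and 0 were called in CD4, in Treg or in the difference between subsets. At an unadjusted p under 0.05 by limma there were 3 in CD4, 5 in Treg and 3 in the difference, for which 83 were tested. Rxrb is among the 3 in the difference. Over all genes tested the counts were 539 of 10426 in CD4, 1008 of 11051 in Treg and 656 of 9914 in the difference. The share of the list genes was below that of all genes in each. The median log2 change was 0.05 for the corepressor list, 0.17 for coactivators, -0.24 for Mediator and 0.05 for RXR and partners in CD4, beside -0.01 for all genes. In Treg the medians were 0.09, -0.02, 0.05 and 0.19 in the same order, beside 0.01.

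The genotypes did not overlap for 1 list gene in CD4 (1.19% of 84) and 4 in Treg (4.71% of 85), shares below the background of 3.16% and 5.07%. In CD4 this was Nrip1, which encodes the nuclear receptor corepressor RIP140, with 598 ± 80.5 in TRaWT and 738 ± 27.3 in TRaGS (log2 change 0.31 ± 0.27, limma adjusted p = 0.947). In Treg, Tacc1 had 389 ± 35.0 and 547 ± 58.3 (0.49 ± 0.17, limma adjusted p = 0.274). Gps2, a subunit of the NCOR1 complex, had 602 ± 161 and 415 ± 34.4 (-0.50 ± 0.18, limma adjusted p = 0.278). Rarg, the retinoic acid receptor gamma gene, had 421 ± 19.2 and 555 ± 62.3 (0.39 ± 0.17, limma adjusted p = 0.441). Kdm6a, a histone H3 lysine 27 demethylase gene, had 288 ± 54.0 and 368 ± 12.3 (0.37 ± 0.19, limma adjusted p = 0.579). No list gene passed the threshold, and Nrip1 in Treg did so only without TRaWT replicate 2 (0.65, limma adjusted p = 0.0466, against 0.38 and 0.490 with all libraries).

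Between subsets, 4 of 83 list genes were higher in Treg in all 8 animals (4.82%, background 3.16%), among them Ncoa3, Nrip1 and Rarg. Another 2 were lower in all 8 (2.41%, background 5.11%): Ddx5, an RNA helicase gene, and Nr1h2. Without TMM factors these counts were 10 and 0. The share of all genes is not given on that scale, where their median was 0.27 against 0.04 with TMM factors. The 10 therefore cannot be set against the background of 3.16%. On that scale Ncoa3, Nrip1 and Rarg were again higher in all 8 animals. Nr1h2 was lower in 7 of 8 and Ddx5 in 4 of 8, with a mean of -0.0027 for Ddx5. Rarg had the largest difference of these, with 22.3 to 54.1 RPM in CD4 and 110.5 to 177 in Treg, without overlap, as for 0.867% of all genes (1.5% did not overlap and were lower in Treg). Nr1h2, which encodes liver X receptor beta, another RXR partner, had 26.1 to 84.5 in CD4 and 15.1 to 29.2 in Treg. These genes were named by their direction in all 8 animals, after their values were seen.

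The genes whose pattern was most like that of Thra over the 16 libraries, with each subset centred on its own mean, were Pcgf3 (Pearson r = 0.788), Ube2k (0.770), Thap12 (0.762), Zfp943 (0.757) and Atp6v0a2 (0.741), of 7613 genes ranked. These are descriptions over libraries that share animals, depth and scaling. Among the 9 genes with a mean of at least 20 in both tables the value with Thra ran from 0.06 for Rxrb to -0.42 for Ncoa3. Within a subset of 8 libraries the values differed: Rxra was at 0.14 in CD4 and -0.81 in Treg, Ncoa1 at -0.63 and 0.44, and Hdac3 at -0.11 and -0.68. Thrb was below that level.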

How the data were processed

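Libraries of 16 sorted T cell samples were made with a 3′ mRNA kit in the forward orientation, per the labels' protocols. The build is GRCm38, per the submitters' processing notes. The aligner, the counter and its strand setting were not given in the sources used here. Deposited by the authors was, for each subset, a table of normalised counts (a signal unit: counts divided by 1 factor per library). All values were whole multiples of 1 step per library within a tolerance of 0.001 (100% in each library), which gave reads back.

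Genes with a mean of at least 5 were tested within a table by limma 3.58.1 (R 4.3.3) on log2(value + 1), with the variance following a trend on level and adjustment by Benjamini-Hochberg over all genes at 0.05; fold changes on this scale understate those of low genes. The difference between subsets used each animal's Treg minus CD4 difference. Levels across tables used recovered reads scaled to 1000000 per library (RPM) with TMM factors (edgeR 4.0.16) and no test. Each library is 1 sample from 1 animal. Intervals and floors cover 95% and 3 reads; reads may include copies of 1 molecule. Alternatives were other pseudocounts, filters, scalings and variance models, array weights, blocks, leaving out each library, and parts of the libraries. Other tools were edgeR and DESeq2 1.42.0 on recovered reads; figures used matplotlib 3.10.9. Simulated data were used to test each fit.

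The 9 genes and the lists were chosen with earlier results of these data known. The rule named the 9 genes, Nr1d1, Rxrg and Ncoa2, list genes that were called or, failing that, whose genotypes did not overlap, with the smallest p (up to 8 per subset), and the 5 genes most like Thra. Some results of that rule are not reported here.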

Additional observations from a re-analysis of the deposited data

Results flagged for a closer look

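In 36 groups of 4 libraries (9 genes in 2 subsets and 2 genotypes), 4 had a highest library whose gap to the next, divided by the range of the group, exceeded Dixon's 95% critical value for 4 samples. Chance flags about 1 in 20 such groups. They were Thrb in CD4 TRaWT replicate 2, with 117 normalised counts (gap over range 0.885), Med1 in CD4 TRaGS replicate 2, with 1208 (0.873), Ncor1 in Treg TRaGS replicate 2, with 3328 (0.887), and Ncoa3 in Treg TRaGS replicate 2, with 493 (0.954). Of the 4 values, 3 came from the TRaGS replicate 2 animal. Each of its 2 libraries was the deepest of its subset (5095278 reads in CD4 and 4154027 in Treg) and had the highest sums of red cell genes (75.8 and 20.2 RPM) and of macrophage and monocyte genes (21.2 and 9.63 RPM); the part of these in the values was not tested.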

How the results depend on the processing

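Under every alternative run, 0 of the 9 genes were called in CD4, Treg or the difference between subsets; of 564 values tried, 505 kept their sign and 59 changed it, and the lowest adjusted p of any of them was 0.328. The count of all genes called moved more. In CD4, where 6 were called, it was 1 with no filter, 2 with upper-quartile scaling, 3 with edgeR, 16 with DESeq2, 0 with no variance trend (538 with an unadjusted p under 0.05), 27 with TRaGS replicates 1 and 2 alone and 3 with library numbers 1 to 18 alone, and 3 to 9 when 1 library was left out (3 without TRaWT replicate 2, 3 or 4). In Treg, where 106 were called, it was 62 with no filter, 0 with no variance trend (899 with an unadjusted p under 0.05), 42 with TRaGS replicates 1 and 2 alone, 28 with library numbers 1 to 18 alone and 14 with 19 to 36 alone, and 56 (without TRaGS replicate 3) to 108 when 1 library was left out. For the difference between subsets, where 17 were called, it was 1 with no filter, 6 with upper-quartile scaling, 0 with the variance trend on the mean difference (591 with an unadjusted p under 0.05) and 34 with TRaGS replicates 1 and 2 alone, and 12 to 31 (without TRaGS replicate 4) when 1 animal was left out. The cause of these moves was not tested. Upper-quartile scaling split the Treg calls into 87 higher and 11 lower (81 and 25 in the deposited scaling) and moved the median of all genes from -0.01 to -0.14 in CD4 and from 0.01 to 0.22 in the difference. Quantile normalisation split the CD4 calls 5 and 1 (6 and 0), and the difference calls were 3 and 14 as deposited, 4 and 2 with upper-quartile scaling and 7 and 8 with quantile normalisation.

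No correlation of deviations between same-numbered TRaWT and TRaGS libraries exceeded 0.1 (0.01 to 0.05 in CD4 and -0.02 to 0.03 in Treg; 4 and 2 of 8 libraries correlated best with their own number), so the number was not taken as a pairing. In CD4, 8 of 8 pairs within the same set of library numbers (1 to 18 or 19 to 36) had a positive correlation, and 1 of 8 pairs across the sets did (4 of 8 and 4 of 8 in Treg). Each group was centred on its own mean, so positive pairs within a set push those across the sets to be negative. The 2 counts are therefore not separate. With the replicate block 4 genes were called in CD4 and 112 in Treg. Fits by library numbers were chosen after seeing the data.

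The following log2 values changed sign. With TRaGS replicates 1 and 2 alone: CD4 Thra 0.27 and Rxra -0.35, Treg Ncoa3 0.012 and Med1 -0.096, and the differences of Thra -0.61 and Rxra 1.73. With library numbers 1 to 18 alone: CD4 Thra 0.74, Treg Ncor1 -0.0097, Ncoa3 0.26 and Med1 -0.089. With 19 to 36 alone: CD4 Med1 -0.24, Treg Thra 0.37 and Hdac3 -0.16. With upper-quartile scaling: CD4 Ncor1 -0.089 and Med1 -0.082, Treg Thra 0.041, and the differences of Rxra 0.031, Ncor1 0.21 and Med1 0.18. With quantile normalisation: CD4 Ncor1 -0.075 and Med1 -0.067, and the differences of Ncor1 0.22 and Med1 0.10. With array weights: CD4 Med1 -0.20, Treg Thra 0.021, Ncor1 -0.016 and Med1 -0.0028. Treg Thra was 0.023 with edgeR and 0.014 with DESeq2. When 1 library was left out, the ranges that crossed 0 were, in CD4, Thra -0.33 to 0.17, Thrb -2.28 to 0.019, Ncor1 -0.11 to 0.16, Ncoa1 -0.17 to 0.45 and Med1 -0.37 to 0.26; in Treg, Thra -0.29 to 0.13, Ncor1 -0.0067 to 0.098, Ncoa3 -0.22 to 0.039 and Med1 -0.11 to 0.089; and for the difference, Thra -0.40 to 0.30, Rxra -1.85 to 0.72, Ncor1 -0.11 to 0.099, Hdac3 -0.998 to 0.57 and Med1 -0.22 to 0.38. Some libraries held 0 or 1 read of Thrb or Rxra, so their values there carry a large counting error.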
